A study of Mus musculus with 2 samples.

Results

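The 9 genes described here encode transcription factors of the ETS family: Spi1, Spib, Ets1, Ets2, Fli1, Elf1, Etv6, Elk3 and Gabpa, out of 21631 protein-coding genes of the mouse. They were chosen by name, as members of the family that supplies DNA-binding partners to IRF4, with no cut on their signal. Earlier results of these data were known when the list was made. A binding summit (the base of highest signal in a peak) was assigned to a gene when it lay inside the RefSeq gene body on mm10 or within 10 kb of either end. By this rule the 9 genes held 79 of the 44058 summits of the optimal list, and each gene held at least 3.

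The assay was ChIP-seq with an IRF4 antibody, which recovers and sequences the DNA bound by IRF4, in CH12.LX, an immortalized line from a mouse B-cell lymphoma (female, strain B10.H-2aH-4bp/Wts). The samples form 1 group of 2 biological replicates, with no treatment or genotype contrast, so each value below is a description with no test. The signal is the authors' value for a peak, on a scale that is not given, and ranks peaks within a list. No read totals came with the lists, which leaves the depth of both replicates unknown, and RNA levels of the 9 genes were not analysed here.

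IRF4, an interferon regulatory factor (IRF), binds most DNA weakly alone. With PU.1 (the product of Spi1) or Spi-B (the product of Spib) it binds a composite of an ETS half-site and an IRF half-site, the ETS-IRF composite element or EICE. It can also bind a pair of IRF half-sites (the interferon-stimulated response element, ISRE) or sit beside AP-1 factors on AP-1-IRF composites. B cells express several ETS factors, and the question addressed here is where IRF4 sat at the genes that encode them.

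The sequence under the summits of these genes was read on mm9, because the genome in use is of that build, from a separate list on mm9 that held 56 summits in or near 8 of the 9 genes. The windows shown are 101 bases, 50 on either side of the summit, and were picked because they are among the strongest summits of their gene or hold a composite element. Capitals mark matches to 1 of these: the EICE (GGAA, any 2 bases, GAAA), the ISRE (GAAA, any 2 bases, GAAA), AP-1 (TGANTCA), an AP-1-IRF composite (TTTC, any 4 bases, TGANTCA) and the words AGAAGTGA and GGAAGTGA. Capitals also mark GAANNGAAA, the EICE with its first base left free, a form added after the sequences had been seen. Matches were taken on either strand, and each window is printed on the strand given with it, 5′ to 3′.
Ets1, 16204 bp into the gene, chr9:32459960-32460060, mm9, + strand: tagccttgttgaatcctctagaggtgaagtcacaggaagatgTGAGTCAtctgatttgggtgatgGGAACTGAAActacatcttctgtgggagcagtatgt
Ets1, beyond the gene's end, chr9:32572806-32572906, mm9, - strand: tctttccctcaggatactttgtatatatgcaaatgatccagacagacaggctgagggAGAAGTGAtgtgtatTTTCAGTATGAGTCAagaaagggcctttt
Fli1, 40346 bp into the gene, chr9:32308578-32308678, mm9, + strand: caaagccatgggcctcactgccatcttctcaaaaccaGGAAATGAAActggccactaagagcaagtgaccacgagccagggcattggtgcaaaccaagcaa
Elf1, 52322 bp into the gene, chr14:79933273-79933373, mm9, + strand: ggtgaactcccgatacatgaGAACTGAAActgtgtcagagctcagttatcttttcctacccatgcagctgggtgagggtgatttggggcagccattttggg
Etv6, 184771 bp into the gene, chr6:134170439-134170539, mm9, + strand: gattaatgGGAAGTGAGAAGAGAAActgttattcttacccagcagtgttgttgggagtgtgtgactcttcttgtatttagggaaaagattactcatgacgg
Etv6, 184983 bp into the gene, chr6:134170651-134170751, mm9, - strand: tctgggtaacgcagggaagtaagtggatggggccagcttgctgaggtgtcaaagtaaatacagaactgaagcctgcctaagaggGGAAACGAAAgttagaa
The Ets1 window inside the gene holds an EICE (GGAACTGAAA) and an AP-1 match in the same 101 bases. The Fli1 window and the second Etv6 window hold the other EICE matches of the 9 genes, GGAAATGAAA and GGAAACGAAA.

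The strongest windows of Ets2, Fli1, Elk3 and Gabpa held none of these elements. The Elf1 window held only the form added after the sequences had been seen. Over the whole mm9 list, 38.1% of summits had at least 1 of the elements searched, so a window with none is common. The Ets2 window, with the highest mm9 signal of the 9 genes (509), is shown for comparison with the Ets1 window, whose mm9 signal was 508.
Ets2, 26781 bp from the start and beyond the gene's end, chr16:95950413-95950513, mm9, + strand: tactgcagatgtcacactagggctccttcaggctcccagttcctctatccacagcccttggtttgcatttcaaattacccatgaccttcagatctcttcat
The pair of windows had nearly the same signal, and only that of Ets1 held letters that were searched for. No match says only that these letters are not in this window.

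Spi1 encodes PU.1, the ETS factor with which IRF4 was first described to bind composite elements, and needed for myeloid and B-lineage development. Its body lies at chr2:91082374-91115759 (+ strand, mm10). It held 3 summits, all weak to middling for the list, or 5 among the strongest peaks of replicate 2 alone. The summit nearest the start lay 686 bp into the gene, with a signal of 14.1 in replicate 1, 31.5 in replicate 2 and 38.0 in the optimal list. The next, 4142 bp into the gene, had 12.2, 16.7 and 30.7 in the same order. The strongest, 14241 bp into the gene, had 23.2 in replicate 1, 32.8 in replicate 2 and 56.0 in the optimal list, the 67.8 percentile of its signals. All 3 were higher in replicate 2 and present in both replicates and in the conservative list. Most optimal summits were alike in this: 85.4% were matched in both replicates and 72.3% were in the conservative list. Of the matched ones, 82.8% were higher in replicate 2. On mm9, coding transcripts of Spi1 (named Sfpi1 in those gene models) also begin 13706 and 14390 bp into the gene, and the strongest mm10 summit lay at a like distance from the gene start. No mm9 summit lay in or near Spi1.

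The region upstream of Spi1 was looked at separately, because 4 further summits lay 10 to 50 kb from the gene, all upstream. The strongest of these was 11852 bp upstream of the start, with 39.3 in replicate 1, 50.3 in replicate 2 and 91.1 in the optimal list. It was stronger than any summit assigned to Spi1, but it sat 81 bp from the start of Slc39a13, a zinc transporter gene, and none of the 4 had Spi1 as its nearest gene start. Which gene such a summit bears on was not tested.

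Spib encodes Spi-B, the close relative of PU.1 that is restricted to lymphoid and plasmacytoid dendritic cells. It is the shortest of the 9 genes (6093 bp, chr7:44525995-44532087, - strand, mm10) and held 8 summits, 4 in its body and 4 upstream. The strongest lay 2256 bp upstream of the start, with 79.0 in replicate 1, 117 in replicate 2 and 195 in the optimal list (96.7 percentile). It lies inside the body of Pold1, the gene of the DNA polymerase delta catalytic subunit, as do the other 3 upstream summits. Nearest the start, 620 bp into the gene, a summit had 40.2 in replicate 1, 46.8 in replicate 2 and 89.1 in the optimal list. Spib had the greatest difference between replicates in each direction among the matched summits of the 9 genes. The summit 2378 bp into the gene had 12.0 in replicate 1 and 46.6 in replicate 2. The one at 4011 bp had 19.6 in replicate 1 and 8.18 in replicate 2. Only 4 of the 8 had a peak of the same start and end in the conservative list. That list itself held 6 summits at Spib by the same gene rule. Of the 8, 2 lay within 340 bp of a stronger summit, so fewer than 8 separate places may be counted.

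With 30.7 summits per 100 kb of body and flanks, Spib stood at the 99.6 percentile of protein-coding genes, above the other 8 members (5.62 to 11.5 per 100 kb). Most of its window is flank, since the gene is short. A further 8 summits lay 10 to 50 kb away, with signals up to 219.5, but for none of them was the start of Spib the nearest gene start.

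**Figure D1:**
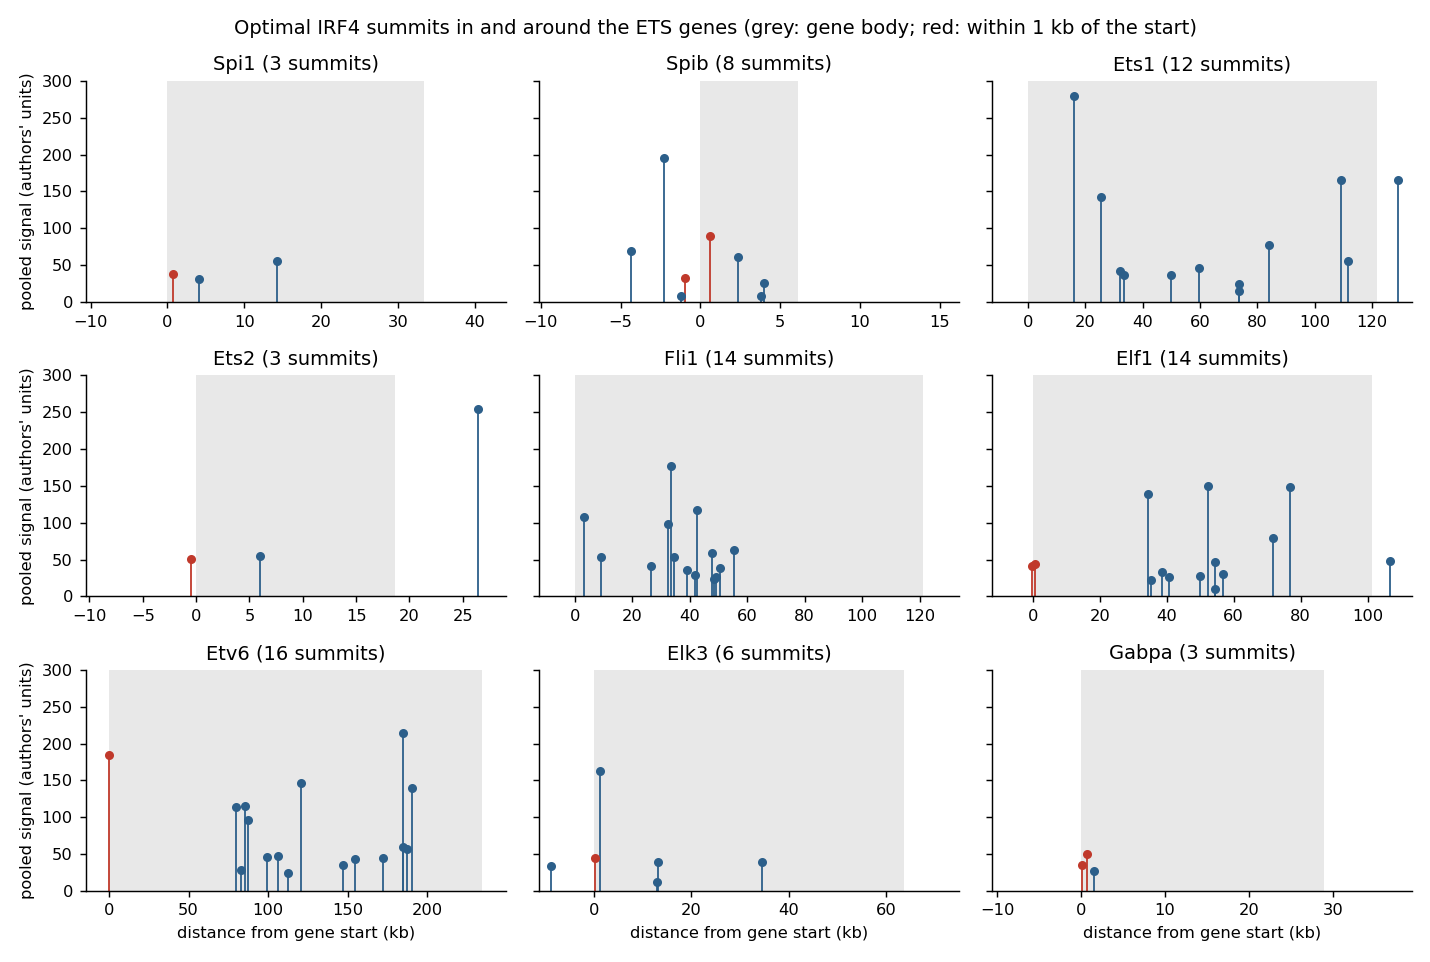
Each panel is 1 of the 9 genes, drawn 5′ to 3′ with the distance from the gene start in kb on the x axis (scale differs between panels) and the signal of each optimal summit, in the authors' units, on the y axis. Grey is the gene body and red marks summits within 1 kb of the start; Ets1 and Fli1 have none, and the 3 strongest summits lie in Ets1 (279.9), beyond the end of Ets2 (255) and deep in Etv6 (214).

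Ets1 and Fli1, which encode ETS activators of lymphoid and of blood and vessel-lining cells, lie next to each other on chromosome 9 and point away from each other. Neither had a summit within 1 kb of its start. Ets1 (chr9:32636241-32757820, + strand, mm10) held 12 summits, and its strongest, 16186 bp into the gene, was the strongest of all 79. Its signal was 124 in replicate 1, 155 in replicate 2 and 279.9 in the optimal list (99.0 percentile), and it is also the Ets1 summit nearest the start. The mm9 counterpart at a like distance is the window with the EICE and AP-1 matches. A second strong pair stood at the far end of the gene. The summit 109054 bp into the gene had 71.0 in replicate 1 and 95.6 in replicate 2. The one 129027 bp from the start, past the gene's end, had 74.1 and 91.5, and its mm9 counterpart holds the only AP-1-IRF match with a gap of 4 bases among the 9 genes. All 11 Ets1 summits matched in both replicates were higher in replicate 2, as were 82.8% of all matched optimal summits. On mm9 a further coding transcript of Ets1 begins 59821 bp into the gene. On mm10 a weaker summit lay 59772 bp from the gene start, with 17.3 in replicate 1, 29.3 in replicate 2 and 46.6 in the optimal list, and no mm9 summit lay closer than 9992 bp to that transcript start.

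Fli1 (chr9:32422204-32543432, - strand, mm10) held 14 summits, all of them between its start and its midpoint. The strongest lay 33423 bp into the gene, with 94.8 in replicate 1, 82.8 in replicate 2 and 177 in the optimal list. It was higher in replicate 1, as was the summit nearest the start, 3189 bp into the gene, with 55.5 in replicate 1, 51.3 in replicate 2 and 108 in the optimal list. The summit 42402 bp into the gene had 44.2 and 73.0, and 117 in the optimal list. Distances from the Fli1 start differ between the mm9 and mm10 lists, so the mm9 windows of Fli1 were not paired with mm10 summits. The remaining 11 summits had signals from 23.7 to 98.1.

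The starts of Ets1 and Fli1 are 92808 bp apart, and 4 further summits lay between them, outside the 10 kb flanks of both. The strongest of these, 23157 bp upstream of Ets1, had 71.4 in replicate 1, 77.0 in replicate 2 and 148 in the optimal list. The other three had 44.3, 45.1 and 56.0 in the optimal list. Together the span of both genes, 335617 bp, held 29 summits.

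Ets2, the close relative of Ets1 and a target of growth-signal kinases, is an 18643 bp gene (chr16:95702407-95721049, + strand, mm10) with 3 summits, or 6 among the strongest peaks of replicate 1 alone. One of them stood far above the others: 26446 bp from the start, past the gene's end, a summit had 118 in replicate 1, 138 in replicate 2 and 255 in the optimal list (98.6 percentile). Inside the gene, 5979 bp from the start, a summit had 25.1, 31.8 and 55.2 in the same order. The third lay 477 bp upstream of the start, with 37.2 in replicate 2 and 50.1 in the optimal list, and had no replicate 1 summit within 100 bp. The nearest in replicate 1 was 156 bp away with a signal of 16.6. Farther out, 7 summits lay 10 to 50 kb downstream of Ets2, all with Ets2 as the nearest gene start, the strongest with 66.1 in replicate 1, 124 in replicate 2 and 191 in the optimal list.

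Elf1 encodes an ETS factor of lymphoid and other blood cells. Its body (chr14:79481174-79582491, + strand, mm10) held 12 of its 14 summits. The strongest 3 were close in signal. The summit 52346 bp into the gene had 64.4 in replicate 1, 81.6 in replicate 2 and 149.9 in the optimal list. The one at 76841 bp had 66.9, 80.7 and 148. The one at 34477 bp had 69.6 in replicate 1, 68.2 in replicate 2 and 139 in the optimal list. Replicate 1 ranked the last of these first and replicate 2 ranked it below both others, so their order rests on the replicate. Nearest the start, 43 bp upstream, the signal was 20.2 in replicate 1, 29.5 in replicate 2 and 41.6 in the optimal list, and this base also lies in the body of the neighbouring gene Wbp4, a splicing factor gene. The last Elf1 summit, 106567 bp from the start and past the gene's end, lay 81 bp from the start of Sugt1 and inside its body, with 14.8 in replicate 1, 30.9 in replicate 2 and 47.7 in the optimal list.

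The Elf1 summit at 34477 bp lay 23 bp upstream of a second start that the RefSeq promoter table lists for the gene. The 100 bases before that start are shown because the summit falls on an AP-1 match in them, from base -23 to base -17, counted with the start site as 0.
Elf1, second listed start, chr14:79515574-79515673, GRCm38.p6, + strand: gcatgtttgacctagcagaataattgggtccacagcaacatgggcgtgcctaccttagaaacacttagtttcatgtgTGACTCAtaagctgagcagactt
An AP-1 match is present in 7.81% of the 32851 promoters in the table, each of 250 bases before to 50 after the start. The mm9 list had no summit at the matching transcript start, 34480 bp into the gene, although the mm10 signal there was among the highest of Elf1.

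Etv6 encodes an ETS repressor needed for blood stem cells, and is the longest of the 9 genes (234459 bp, chr6:134035700-134270158, + strand, mm10). In the optimal list it held the most summits, 16, and 6 with a signal of 100 or more. The first place depends on the list and the flank: among the strongest peaks of replicate 1 alone Ets1, Fli1, Elf1 and Etv6 had 16 each, and with 50 kb flanks Elk3 (22) and Fli1 (20) had more than Etv6 (18). The strongest, 184784 bp into the gene, had 82.4 in replicate 1, 133 in replicate 2 and 214 in the optimal list (97.5 percentile). A weaker summit 199 bp away had 23.5, 30.0 and 59.4, and the pair of mm9 windows of Etv6 comes from the corresponding pair on that build. The second strongest lay 17 bp upstream of the start, with 75.1 in replicate 1, 111 in replicate 2 and 184 in the optimal list, and was the strongest of the members' summits within 1 kb of a start. Between it and the next, 80089 bp into the gene, there was none. Of its 15 matched summits, the one most tilted to replicate 1 was at 106254 bp, with 28.4 in replicate 1 and 18.7 in replicate 2.

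The bases around the Etv6 start are shown because the promoter held an ISRE match from base 7 to base 16 on the transcribed side. The stretch has 100 bases before the start and 17 from it on.
Etv6, chr6:134035600-134035716, GRCm38.p6, + strand: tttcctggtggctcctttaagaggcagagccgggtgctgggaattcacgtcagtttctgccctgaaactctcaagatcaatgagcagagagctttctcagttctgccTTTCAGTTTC
The ISRE letters are present in 3.44% of the 32851 promoters, and EICE letters in 2.72%. The promoter table also held Spib, Elk3, Gabpa, Ets2 and the first start of Elf1, and none of the elements was found in these 5 promoters. No single element was in more than 7.81% of all promoters, so none in 5 is unremarkable. The promoter stretches of Spib, Elk3 and Ets2 held no summit, so their letters say nothing about bound DNA. Promoter sequences are from RefSeq (GRCm38.p6), which matched 6 of the 9 genes; those of Spi1, Ets1 and Fli1 were not used here.

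Elk3 encodes a ternary complex factor, an ETS protein that acts with serum response factor. Its body lies at chr10:93247415-93311159 (- strand, mm10), and it held 6 summits. One dominated: 1357 bp into the gene, with 61.6 in replicate 1, 106 in replicate 2 and 163 in the optimal list (94.9 percentile). The summit nearest the start, at 176 bp, had 16.8, 26.1 and 44.7. The summit 13030 bp into the gene, with 12.3 in the optimal list, lay 201 bp from a stronger one and was the only one of the 79 with no summit of either replicate within 100 bp. Beyond its window, 16 summits lay 10 to 50 kb upstream, and Elk3 had the nearest gene start for all 16. The other 8 genes had 1 to 8 summits at this distance on both sides together. The strongest, 42990 bp upstream, had 71.1 in replicate 1, 95.5 in replicate 2 and 165 in the optimal list. The next, 45111 bp upstream, had 45.3, 92.1 and 139. The others had between 16.0 and 61.1, and 6 of the 16 had no match in one or the other replicate.

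Gabpa encodes the DNA-binding subunit of GABP, an ETS factor that acts with the Gabpb1 and Gabpb2 subunits at many promoters. It had the weakest strongest summit of the 9 genes (chr16:84834891-84863783, + strand, mm10), and its 3 summits lay within 1566 bp of the start. At 748 bp the signal was 29.3 in replicate 1, 20.0 in replicate 2 and 49.8 in the optimal list. That base is 218 bp from the start of Atp5j, a subunit gene of the mitochondrial ATP synthase whose body holds it and the next summit. At 57 bp it was 34.5 in replicate 2 and 35.4 in the optimal list, and replicate 1 had no summit within 100 bp, the nearest being 151 bp away with 11.9. At 1566 bp it was 9.90 in replicate 2 and 27.0 in the optimal list, again with none in replicate 1 within 100 bp. So only 1 of the 3 was matched in both replicates, the smallest share of the 9 genes, and that one was higher in replicate 1.

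Long genes can hold more summits, so the number is also given per length. Members had a median of 8 summits over a median window of 83745 bp, against 1 summit over 37329 bp for all protein-coding genes. Per 100 kb the medians were 7.76 for the members and 2.34 for all genes. Over all genes, 62.3% had a summit by the same rule, so that 9 of 9 stands beside that share. A summit within 1 kb of the start was present for 7 of the 9 members, against 31.9% of the 21318 genes with a known start. The highest percentiles of summit number were those of Etv6 (99.3), Fli1 (99.0), Elf1 (99.0) and Ets1 (98.4), and those genes are also the 4 longest. Ets2 and Gabpa lie on chromosome 16, which carried 23.6 optimal summits per Mb, and the other members on chromosomes with 13.6 to 19.5 per Mb. The part of chromosome copy number in these values was not tested.

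**Figure D2:**
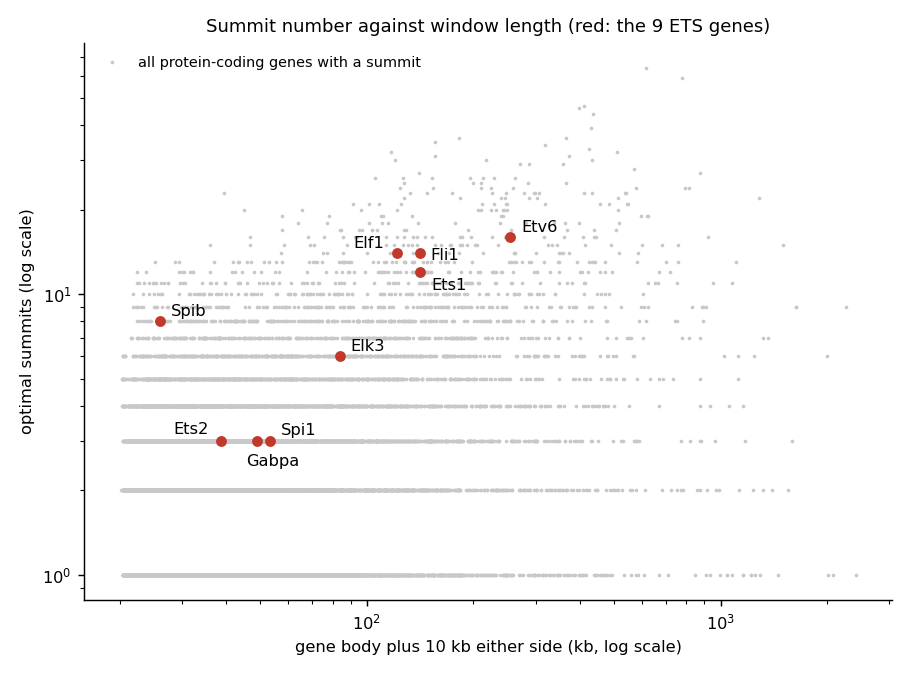
Each point is a protein-coding gene with at least 1 optimal summit, with the length of its body plus 10 kb on either side in kb on the x axis and its number of optimal summits on the y axis, both on log scales; the 9 ETS genes are red. Spib, with 8 summits, lies at the short end of the x axis, and Etv6, with 16, has the longest window of the 9.

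Of the 79 summits, 68 lay in gene bodies, 8 upstream and 3 downstream. On mm9, with transcript models, 43 of the 56 lay in introns, 3 in untranslated exons, 7 upstream and 3 downstream. A base in an untranslated exon of any transcript was counted there first, and none of the remaining summits lay in a coding exon. The nearest gene start was that of the member for 58 of 79, and 8 summits lay inside another protein-coding gene. For place, nearest start and overlap with another gene, shares over all summits were not computed, so these counts are not particular to the 9 genes. The nearest start was taken from 1 start per gene. The Elf1 summit at 34477 bp, 23 bp from a second Elf1 start, thus counted for Wbp4, whose start was 34383 bp away. A signal of 100 or more was found at 19 of the 79 (24.1%, Wilson interval 16.0 to 34.5), against 12.9% of all optimal summits, and these 19 belonged to 7 of the 9 genes, with none in Spi1 or Gabpa. Of the 79, 62 (78.5%) had a peak of the same start and end in the conservative list, against 72.3% of all. That list itself held 70 summits over the 9 genes. Of the 79, 6 lay within 340 bp of a stronger summit (7.59%, against 6.04%). Summits of 1 gene share their region and are not independent, and the intervals cover counting error only.

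Both replicates had a summit within 100 bp at 69 of the 79 (87.3%, 78.2 to 93.0), against 85.4% of all optimal summits. Of the rest, 3 were matched in replicate 1 alone, 6 in replicate 2 alone and 1 in neither. The relaxed list searched held 215095 peaks for replicate 1 and 300000 for replicate 2. The optimal list was itself made from such lists, so these shares are not an independent check. At the 69 matched summits the median log2 ratio of replicate 2 to replicate 1 was 0.39 (SD 0.57, n = 69 summits), with 59 (85.5%) higher in replicate 2. Over all 37635 matched optimal summits it was 0.53 (SD 0.66), with 82.8% higher in replicate 2. Within 1 kb of gene starts the members' median was 0.63 over 9 summits, and farther away 0.37 over 60. Over all matched optimal summits the same medians were 0.54 and 0.53.

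**Figure D3:**
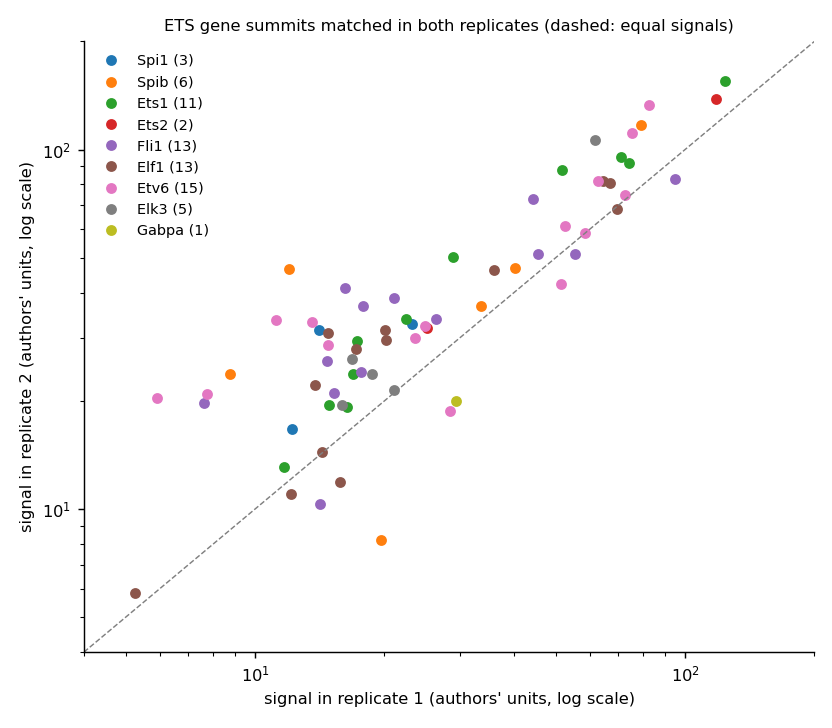
Each point is 1 of the 69 ETS gene summits matched in both replicates, with its replicate 1 signal on the x axis and its replicate 2 signal on the y axis (authors' units, log scales), coloured by gene with the number of points in brackets. Most points (59 of 69) lie above the dashed line of equal signals; the orange Spib points include both the highest ratio (12.0 against 46.6) and the lowest (19.6 against 8.18).

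For each element searched, the share of the whole mm9 list lay inside the Wilson interval of the members' share, which at 56 summits is wide. Summits of 1 gene are not independent here either, so the intervals cover counting error only and are no test of the 9 genes. EICE was found within 50 bp of 3 of 56 member summits (5.36%), against 8.68% of all 27671. ISRE was found at 4 (7.14%, against 5.79%) and AP-1 at 7 (12.5%, against 16.0%). These lay in Fli1, Elf1 and Etv6 for ISRE, with Etv6 holding 2, and in Ets1, Fli1 and Etv6 for AP-1. The AP-1-IRF composite with adjoining sites (GAAA followed by TGANTCA) was at none of the 56 (against 1.13%), and that with a gap of 4 at 1 (1.79%, against 1.12%). The word AGAAGTGA was at 3 (5.36%, against 2.83%). The word GGAAGTGA was at 2 (3.57%, against 6.81%). With the first base of the EICE free the count was 11 (19.6%, against 15.2%). Every summit with an EICE match, and some summits with AGAAGTGA or GGAAGTGA, are also among these 11. AP-1 letters lie within both composites. At least 1 of these elements was at 22 of the 56 (39.3%, Wilson interval 27.6 to 52.4), against 38.1% of all.

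**Figure D4:**
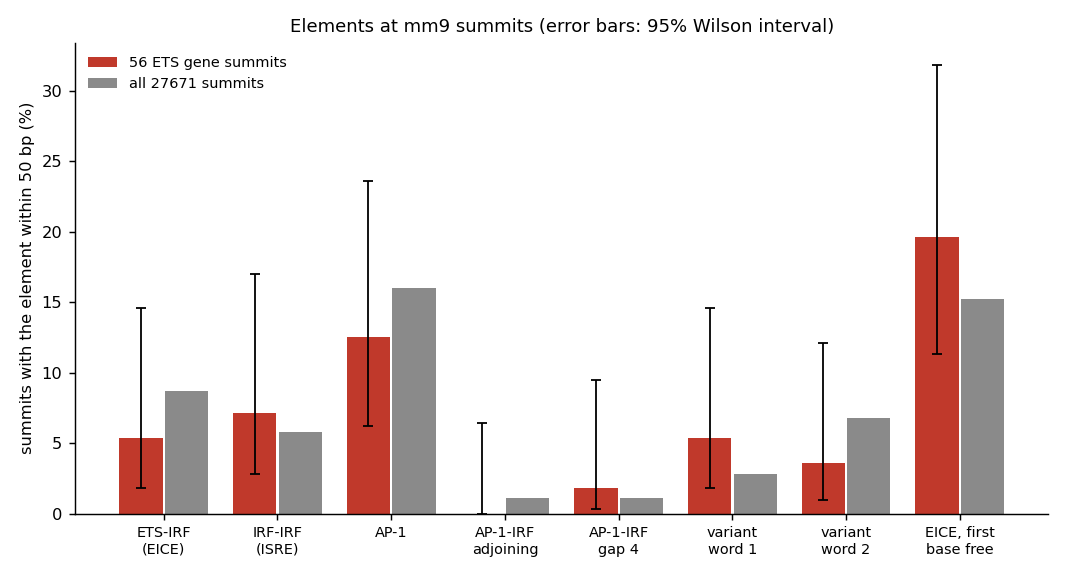
Bars give the percent of mm9 summits with each element within 50 bp of the summit, red for the 56 ETS gene summits and grey for all 27671, with 95% Wilson intervals on the red bars; variant word 1 and 2 are the words AGAAGTGA and GGAAGTGA. Every grey bar lies within the red bar's interval, and EICE is at 5.36% against 8.68%.

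The other 17 ETS genes gave a scale for the family. Of them, 15 had an optimal summit. Over all 17 the medians were 3 summits, 5.01 per 100 kb and a strongest signal of 56.4. The median strongest signal was 177 for the members and 36.0 over all genes. Genes without a summit were ranked lowest in these medians, and over all genes only 62.3% had a summit. The median window was 37214 bp for the 17, 37329 bp over all genes and 83745 bp for the members. A longer window can hold more summits and so a higher strongest signal, and strongest signals were not compared at equal length. Of the 17, Elk4, another ternary complex factor, had the strongest summit. It had 106 in replicate 1, 168 in replicate 2 and 275 in the optimal list. Next came Erg, the close relative of Fli1 (103, 150.2 and 254), and Elk1 (59.8, 80.6 and 140.5). Spic, the third gene of the PU.1 group, and Etv4 had none in body or flanks. All 8 genes listed as cofactors of ETS factors or of IRF4 (Gabpb1, Gabpb2, Srf, Runx1, Cbfb, Irf8, Jun and Pax5) had a summit, the strongest at Pax5, the B-cell identity factor gene (160.2, 195 and 353), and at Runx1 (124, 146 and 271).

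By window length, summit number and strongest signal together, the genes most like Spi1 among the 13479 with a summit were Kansl3, Csnk1d and Oga, each with 3 summits and strongest signals of 55.6, 56.4 and 55.3. Those most like Etv6 were Atg7, Gas7 and Sdccag8, with 18, 17 and 16 summits and strongest signals of 211, 244 and 237. The likeness is the Euclidean distance on log2 values over these 3 quantities, at most 0.02 for the first set and 0.20 to 0.23 for the second, so Spi1 had far closer matches than Etv6.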

How the data were processed

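The 2 samples are ChIP-seq libraries for IRF4 from CH12.LX, labelled biological replicates 1 and 2. Nothing says that they came from separate cultures. The authors deposited 6 lists of peaks, and per the deposited descriptions the optimal and conservative lists were made by the irreproducible discovery rate (IDR) from relaxed mm10 lists of each replicate and of both pooled. The mm9 list was made from the alignments of both replicates. The signal of each peak is the authors' deposited value (column 7 of the narrowPeak format). The caller, aligner, depth and signal scale were not given in the sources used here. A control experiment that the labels name was not analysed here.

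Summits were the peak start plus the offset. Gene bodies came from RefSeq (GRCm38), and the start and strand from the RefSeq promoter table or else the GENCODE gene of the same name or synonym (21318 of 21631 genes). Replicate signals are those of the nearest summit within 100 bp. Elements were matched within 50 bp of mm9 summits with mm9 sequence, because the genome in use is mm9, and coordinates were not converted between builds. Percentiles are over protein-coding genes, or over the optimal list for a summit. Intervals are 95% Wilson intervals. The members and gene lists were chosen with earlier results of these data known. Named by rule were the 9 members, other ETS genes with the 3 strongest summits or none, cofactor genes with the 2 strongest or none, the 3 genes most like Spi1 and Etv6, and genes whose bodies hold a member summit. Regions 10 to 50 kb from the genes, and between Ets1 and Fli1, were described after values were seen. Python 3.11.15, numpy 2.4.6, scipy 1.17.1, pysam 0.24.0 and matplotlib 3.10.9 were used, and the counting was tested on simulated data. The sequence at 1 summit is not reported here.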

Additional observations from a re-analysis of the deposited data

How the results depend on the processing

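Of 43 alternative values, 38 stayed within a set range of the reported ones (1.5 times for counts and densities, the 95% Wilson interval for shares, 1 SD for the log2 ratio), 5 moved beyond it and 0 reversed. The widest moves inside it were the ETS-IRF share within 100 bp (8.93%) and 25 bp (3.57%, against 5.36%) and the other ETS genes with a summit in the body alone (10 against 15). Genes with a summit near the start also stayed inside it, at 5 within 500 bp against 7 within 1 kb. Counts, densities and shares have no sign to reverse, and the set ranges are wide, so the tally is a weak check. Summits over the 9 genes numbered 129 with 50 kb flanks and 49 at or above the median signal, against 79, by construction of these settings. The share matched in both replicates was 77.2% within 50 bp and 93.7% within 200 bp. The share with an ETS-IRF element rose to 19.6% with its first base free, an alternative chosen after seeing the data. Leaving out each replicate in turn gave 9 genes with a summit both times, 81 to 92 summits, 8.91 to 10.1 per 100 kb, 16 other ETS genes with a summit and 7 genes with a summit within 1 kb of the start. By gene, Ets2 had 6 summits without replicate 2 and Spi1 had 5 without replicate 1, against 3 each. The strongest summit was the same for 8 of 9 genes each time. Gabpa moved without replicate 1, to 56 bp, and Elf1 without replicate 2, to 34477 bp. With gene bodies alone, Spib and Ets2 had other strongest summits (89.1 and 55.2). The mm9 list gave 8 genes and 56 summits, with none in Spi1. No paired analysis was possible because the samples form 1 group. Unknown depth, 2 replicates and 1 start per gene limit all values.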

Other observations

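Spib and Elk3 were the genes whose wider surroundings held most further summits at 10 to 50 kb, with 8 and 16. Ets2 had 7, all nearest to its own start, while none of the 8 of Spib was nearest to the start of Spib. Fli1 had 6, Spi1 had 4, Ets1 and Elf1 had 3 each, Etv6 had 2 and Gabpa had 1. For Fli1 the nearest gene start was its own for 1 of the 6, and for Ets1 for all 3.

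On mm9 an Etv6 summit 226475 bp into the gene, with an AP-1 match within 50 bp and a signal of 136, had no counterpart in the optimal list at a like distance. The 2 mm9 summits of Ets2 past the gene's end share 1 peak, with signals of 509 and 97.5, and the mm10 list has 1 summit there.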
